A study of Mus musculus with 8 samples.

Results

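The 10 genes described here are beta-catenin and targets of Wnt/beta-catenin signalling that are known from the liver: Ctnnb1, Axin2, Nkd1, Notum, Lgr5, Tbx3, Glul, Oat, Rhbg and Lect2. They were chosen by their symbols in the authors' normalized table and joined to the count table by Ensembl identifier, which gave 10 of the 55536 counted genes. All 10 passed the filter on low counts. Their levels in 8 mouse liver tumors and their relation to Alb, the gene of serum albumin, are given first, followed by the comparison of treated with control tumors.

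The tumors were grown from HCA-1 cells, a mouse hepatocellular carcinoma line, of which 1000000 were implanted under the liver capsule of male C3H mice aged 6 to 8 weeks according to the sample labels. On day 17 the mice of the IMQNP group (n = 4, replicates 1, 2, 3 and 4) received PFSUV-IMQ intravenously at 4 mg/kg, and those of the Control group (n = 4, replicates 1, 3, 4 and 5) received saline. PFSUV-IMQ is imiquimod, an agonist of the receptor TLR7, carried in phospholipid-free small unilamellar vesicles. Tumors of both groups were taken 3 h later for RNA sequencing of the bulk tissue. All tumors came from 1 cell line, and a bulk sample of an orthotopic tumor can hold host liver cells as well as tumor, vessel and immune cells. Replicate tumors came from different mice, so the spread within a group includes the variation between animals.

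Wnt ligands bind Frizzled and LRP receptors at the cell surface and block the complex of Axin, APC and kinases that marks beta-catenin for breakdown. Stabilized beta-catenin enters the nucleus, where it joins TCF/LEF factors and switches on targets, several of which are inhibitors that feed back on the pathway. In the normal liver the pathway is active in hepatocytes around the central vein, where it drives glutamine synthesis and other pericentral functions, and activating mutations of it are common in hepatocellular carcinoma.

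Total counts spanned 16883911 to 27687756 in Control and 17008151 to 18527613 in IMQNP tumors, so that 3 counts equal 0.108 to 0.178 CPM. Control 4 and IMQNP 2 stood apart from the other 6 tumors, with Alb at 22446 and 22736 normalized CPM (library-size-scaled counts after TMM normalization in edgeR) against 2938 to 9027 CPM. All 15 hepatocyte markers were detected, and their summed per-length level ranged from 9733 to 61523 TPM (counts per exon length, scaled to the same sum in every tumor) in the Control tumors and from 14137 to 55944 TPM in the IMQNP tumors. The cholangiocyte list summed to 3258 to 14435 TPM and 3892 to 12135 TPM, most of it Spp1, the gene of osteopontin, which many carcinoma cells also make. Mitochondrial transcripts took 2.29, 4.72, 4.19 and 1.37% of counts in Control 1, 3, 4 and 5 and 1.59, 6.65, 3.76 and 5.22% in IMQNP 1 to 4. Control 3 exceeded Control 4, so their share did not set both high-Alb tumors apart. It was lowest in Control 5 and IMQNP 1, which were also lowest in Alb at 2938 and 4259 CPM. IMQNP 2 was highest in both. The relation of this share to Alb was not tested. Results that rest on Control 4 and IMQNP 2 are given with and without them, an alternative chosen after the data were seen.

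**Figure D1:**
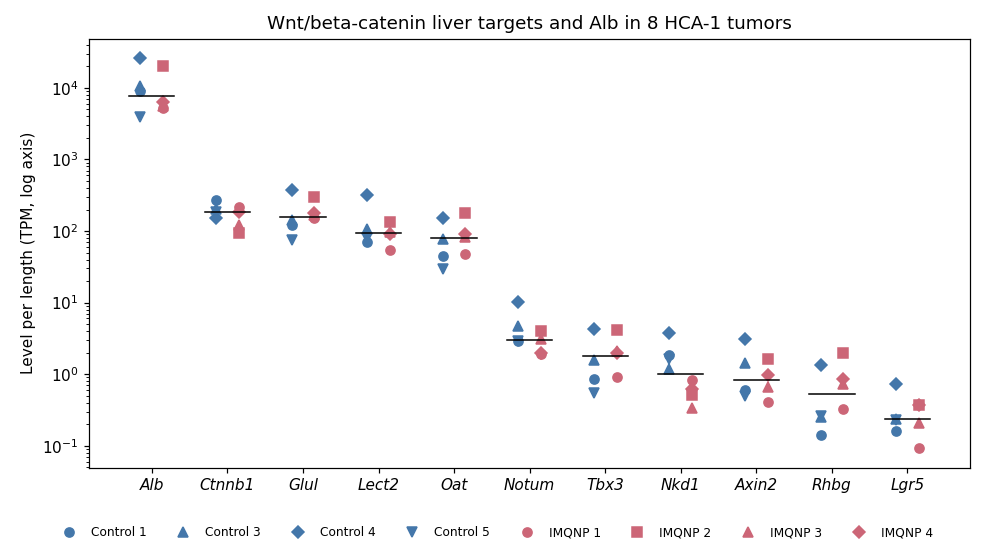
Per-length level (TPM, log axis) of Alb and the 10 genes in each of the 8 tumors, with Control in blue, IMQNP in red, one symbol per tumor and a black line at the median of all 8. Ctnnb1, Glul, Lect2 and Oat had medians of 79.9 to 185 TPM, and the other 6 genes had medians of 0.234 to 2.97 TPM.

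Per unit of length, the genes fell into an abundant and a scarce set. Median levels over the 8 tumors were 185 TPM for Ctnnb1, 160 TPM for Glul, 93.6 TPM for Lect2 and 79.9 TPM for Oat. These were followed by 2.97 TPM for Notum, 1.77 TPM for Tbx3, 1.00 TPM for Nkd1, 0.828 TPM for Axin2, 0.530 TPM for Rhbg and 0.234 TPM for Lgr5. The step between Oat and Notum was the only one between neighbours in this order that held in all 8 tumors with ranges that do not overlap. The other neighbours overlapped, and Ctnnb1 exceeded Glul in 5 of 8 tumors and Nkd1 exceeded Axin2 in 4 of 8. The abundant targets were thus metabolic enzymes and a secreted protein, and the scarce ones were the feedback inhibitors, the receptor, the transcription factor and the ammonium transporter. Alb itself ranged from 3918 to 26186 TPM with a median of 7755 TPM.

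Ctnnb1 (ENSMUSG00000006932, GRCm38 chromosome 9, 120929216 to 120960507) encodes beta-catenin, the transducer of the pathway, which is controlled mainly by protein breakdown. In the Control tumors it measured 474 CPM in replicate 1, 377 CPM in replicate 3, 285 CPM in replicate 4 and 310 CPM in replicate 5. In the IMQNP tumors it measured 386, 229, 245 and 347 CPM in replicates 1 to 4. Its range of 2.07-fold was the narrowest of the 10 genes, and IMQNP 2, highest in Alb, was lowest in Ctnnb1. Exons of other genes, the antisense gene Ulk4 and the microRNA gene Mir7090, overlap 15.06% of its exon bases, and the sources used here do not state whether counting used strand.

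The feedback inhibitors Axin2, Nkd1 and Notum act at separate steps. Axin2 (ENSMUSG00000000142, chromosome 11, 108920349 to 108950783) encodes a scaffold of the complex that breaks down beta-catenin and is a widely used readout of the pathway. It measured 1.11, 2.85, 6.27 and 0.869 CPM in Control 1, 3, 4 and 5 and 0.772, 4.26, 1.45 and 1.98 CPM in IMQNP 1 to 4. Control 4 and IMQNP 2 were the highest tumors of their groups, and the groups overlapped. Notum (ENSMUSG00000042988, chromosome 11, 120653788 to 120661175) encodes a secreted enzyme that removes the lipid Wnt ligands need. It showed the same top tumors, with 2.30, 4.15, 9.02 and 2.23 CPM in the Control tumors and 1.60, 4.61, 2.90 and 1.76 CPM in the IMQNP tumors. Antisense genes, among them Notumos, overlap 38.12% of the exon bases of Notum, so its reads and theirs may not be separable. Nkd1 (ENSMUSG00000031661, chromosome 8, 88521354 to 88594884) encodes an inhibitor that binds Dishevelled. It measured 2.81, 1.93, 6.23 and 2.39 CPM in the Control tumors and 1.32, 1.12, 0.613 and 1.05 CPM in the IMQNP tumors, on 44 to 145 and 11 to 24 counts. Every IMQNP tumor was below every Control tumor, and IMQNP 2 was not raised as it was for Axin2 and Notum.

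Lgr5 (ENSMUSG00000020140, chromosome 10, 115450311 to 115587780) encodes a receptor for R-spondins that strengthens Wnt signalling and marks pericentral hepatocytes. With 6 to 63 counts per tumor it was the scarcest gene per length, at 0.553, 0.878, 2.71 and 0.760 CPM in the Control tumors and 0.331, 1.82, 0.836 and 1.38 CPM in the IMQNP tumors. Tbx3 (ENSMUSG00000018604, chromosome 5, 119670669 to 119684724) encodes a T-box transcription factor found in liver progenitors and pericentral cells. It measured 1.89, 3.72, 10.5 and 1.14 CPM in the Control tumors and 2.097, 12.9, 5.41 and 4.80 CPM in the IMQNP tumors. For both genes Control 4 and IMQNP 2 were highest within their groups and the groups overlapped.

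The pericentral metabolic genes span nitrogen handling. Glul (ENSMUSG00000026473, chromosome 1, 153899944 to 153909723) encodes glutamine synthetase, which fixes ammonia in the last hepatocytes before the central vein and is used as a stain for beta-catenin activity in liver tumors. It measured 134, 172, 454 and 80.0 CPM in the Control tumors and 176, 469.8, 217 and 219 CPM in the IMQNP tumors. Of the 50-base words in its longest transcript, 14.18% also occur in other genes. Oat (ENSMUSG00000030934, chromosome 7, 132557478 to 132576398) encodes ornithine aminotransferase. It measured 34.9, 65.4, 130 and 22.0 CPM in the Control tumors and 39.6, 201, 77.2 and 77.1 CPM in the IMQNP tumors. Rhbg (ENSMUSG00000104445, chromosome 3, 88242874 to 88254709) encodes an ammonium transporter. It had only 2 to 26 counts per tumor, or 0.0922, 0.176, 0.945 and 0.163 CPM in the Control tumors and 0.221, 1.82, 0.558 and 0.606 CPM in the IMQNP tumors. In Control 1 and Control 5 it was at or under the floor of 3 counts, and 61.44% of its exon bases overlap the same-strand gene Gm38392, which makes its values uncertain. Control 5 was lowest in Glul and Oat, and the groups overlapped in all 3 genes.

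Lect2 (ENSMUSG00000021539, chromosome 13, 56542464 to 56548502) encodes a protein that hepatocytes secrete into the blood. It measured 21.2, 35.5, 107 and 23.7 CPM in the Control tumors and 17.6, 58.3, 34.9 and 30.4 CPM in the IMQNP tumors, with Control 4 far above the rest and overlapping groups.

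Promoter windows from 250 bases before to 50 bases after the annotated start were given by RefSeq (GRCm38.p6) for 6 of the 10 genes, namely Ctnnb1, Axin2, Nkd1, Glul, Oat and Lect2. They were searched on both strands for CTTTGA, a core of the sites that TCF/LEF factors recognize. The motif occurred in 1 of the 6 genes, Lect2, on the strand opposite to the gene and 31 bases before the start, whereas 18.2% of all 27025 genes with a window and 16.0% of all 32851 windows hold it. The windows of Lect2, of Axin2, whose level followed Alb most closely, and of Nkd1, whose groups did not overlap, follow 5′ to 3′ on the strand of the gene. Capitals mark the motif, read here as its reverse complement. They lie at chr13:56548489-56548788 (minus strand), chr11:108920099-108920398 (plus strand) and chr8:88527383-88527682 (plus strand).
Lect2: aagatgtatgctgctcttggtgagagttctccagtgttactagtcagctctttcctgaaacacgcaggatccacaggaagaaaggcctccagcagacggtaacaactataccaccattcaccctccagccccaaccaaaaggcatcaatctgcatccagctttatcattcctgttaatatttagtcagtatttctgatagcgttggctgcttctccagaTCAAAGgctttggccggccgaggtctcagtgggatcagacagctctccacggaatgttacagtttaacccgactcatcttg
Axin2: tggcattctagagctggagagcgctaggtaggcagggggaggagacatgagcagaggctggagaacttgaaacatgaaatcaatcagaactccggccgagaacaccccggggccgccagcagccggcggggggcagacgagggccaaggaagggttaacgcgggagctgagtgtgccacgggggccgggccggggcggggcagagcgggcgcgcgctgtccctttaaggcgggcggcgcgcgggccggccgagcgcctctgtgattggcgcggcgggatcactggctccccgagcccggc
Nkd1: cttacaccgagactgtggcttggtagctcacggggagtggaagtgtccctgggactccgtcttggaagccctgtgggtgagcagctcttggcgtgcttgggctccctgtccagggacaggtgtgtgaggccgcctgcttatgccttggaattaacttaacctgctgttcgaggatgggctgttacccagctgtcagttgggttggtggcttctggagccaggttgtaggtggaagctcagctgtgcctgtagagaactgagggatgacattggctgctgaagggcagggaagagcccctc
The windows of Axin2 and Nkd1 hold no CTTTGA, which says only that these letters are not in these 300 bases. The windows of Nkd1 and Ctnnb1 lie inside the genes at the coordinates given above, so the regions at those gene starts were not searched. Enhancers and the rest of the genes were not searched either.

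Across the 8 tumors, most of the genes followed Alb. Of the 10 genes, 8 had the same 2 highest tumors as Alb, Control 4 and IMQNP 2, and 7 had Control 5 or IMQNP 1 as the lowest. The shares of all tested genes with these ranks were not counted. Pearson's r of log2 CPM (prior count 2) with Alb was positive for 9 of 10 genes, with a median over the 10 genes of 0.85. Over all 15997 tested genes other than Alb, the 10 included, the median was 0.01. In bulk tumors, fewer cells of a type and less RNA per cell cannot be told apart, so a gene that follows Alb may follow either.

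**Figure D2:**
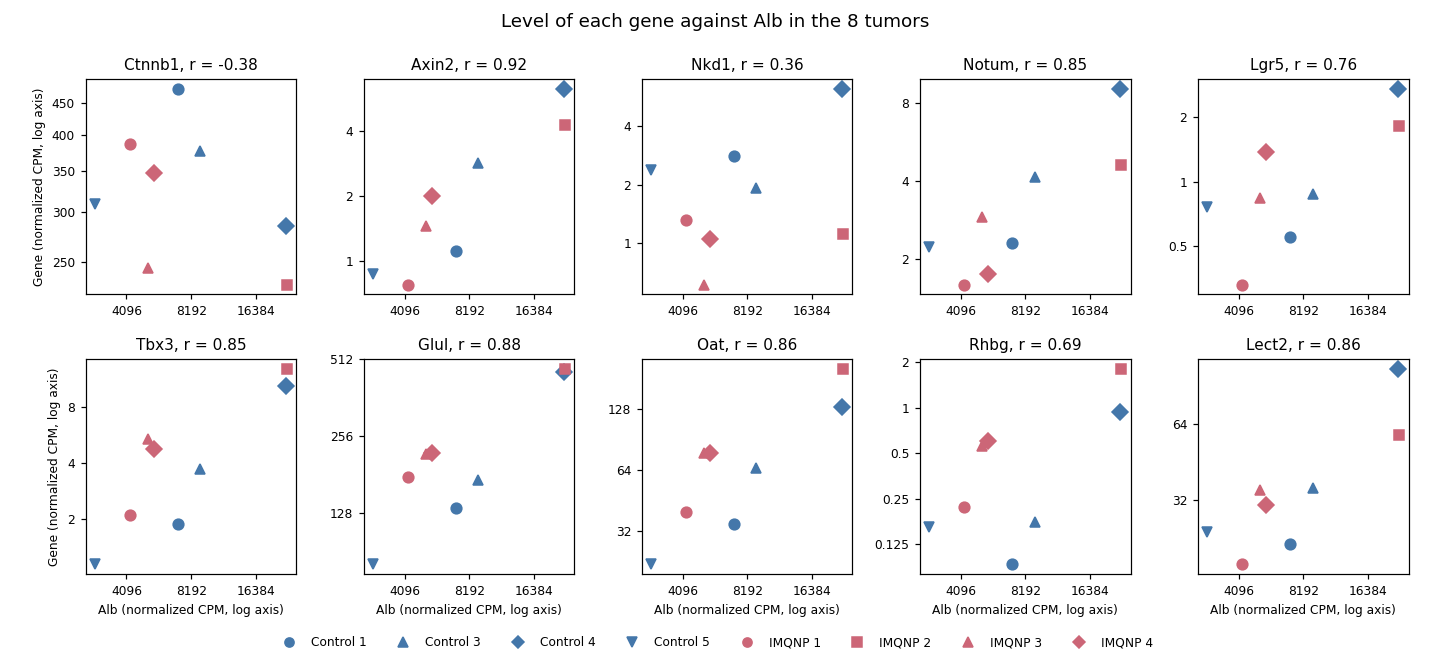
Normalized CPM of each gene against that of Alb, both on log axes, with 1 point per tumor and Pearson's r over the 8 tumors in each title. In 8 of the 10 panels the 2 tumors at the right, Control 4 and IMQNP 2, are also the highest for the gene, while Nkd1 is at 1.12 CPM in IMQNP 2 and Ctnnb1 is lowest of all in that tumor.

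Axin2 had the highest r, at 0.92 (exact permutation p = 0.00169, adjusted p = 0.0283 over all tested genes, Spearman's rho 0.88, exact permutation p = 0.00724, adjusted p = 0.0706, n = 8). With 7 tumors its r stayed between 0.88 and 0.95, but the adjusted permutation p was 0.0929, 0.0737 and 0.0762 without Control 3, 4 and 5 and 0.0665, 0.0913 and 0.0658 without IMQNP 1, 2 and 3. It was the 1 gene of the 10 past an adjusted p of 0.05 in r, where 6.60% of all tested genes passed with a positive r and 3.46% with a negative r. It was also the 1 gene with r of at least 0.9, as 5.24% of tested genes were. Unadjusted, 7 of the 10 genes had an exact permutation p under 0.05. The share of all tested genes at that threshold was not counted, and it includes every gene that passed after adjustment. Glul followed with r = 0.88 (exact permutation p = 0.00675, adjusted p = 0.0584, rho 0.64), Oat with 0.86 (exact permutation p = 0.00704, adjusted p = 0.0597, rho 0.71) and Lect2 with 0.86 (exact permutation p = 0.00776, adjusted p = 0.0629, rho 0.76). Tbx3 had r = 0.85 (exact permutation p = 0.00883, adjusted p = 0.0670, rho 0.71) and Notum 0.85 (exact permutation p = 0.00635, adjusted p = 0.0566, rho 0.81). None of these 5 genes passed the adjusted threshold. The scarce genes Lgr5 and Rhbg had r = 0.76 and 0.69 (exact permutation p = 0.0299 and 0.0609, adjusted p = 0.130 and 0.196, rho 0.74 and 0.55).

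Nkd1 and Ctnnb1 stood outside this pattern. Nkd1 had r = 0.36 (exact permutation p = 0.388, adjusted p = 0.597, rho 0.19) and Ctnnb1 had r = -0.38 (exact permutation p = 0.348, adjusted p = 0.560, rho -0.31). With the mean of each group subtracted, r was 0.97 for Glul, 0.96 for Oat, 0.94 for Tbx3, 0.92 for Axin2, 0.89 for Notum, 0.86 for Lect2, 0.85 for Rhbg and 0.76 for Lgr5, against 0.52 for Nkd1 and -0.45 for Ctnnb1. Axin2, Glul, Oat and Tbx3 then had an adjusted permutation p under 0.05 (0.0393 to 0.0433). The share of all tested genes that passed with group means subtracted was not counted.

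The relations rested on Control 4 and IMQNP 2. Without these 2 tumors, the farthest from the median of Alb, r over the other 6 was 0.75 for Axin2 (exact permutation p = 0.0903), 0.59 for Notum, 0.58 for Oat, 0.52 for Tbx3, 0.51 for Glul and 0.44 for Lect2 (exact permutation p from 0.224 to 0.393). It was 0.19 for Lgr5, 0.08 for Nkd1 and -0.11 for Rhbg, and Ctnnb1 changed sign to 0.43. None of the 10 genes had an unadjusted p under 0.05 over these 6 tumors.

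Dividing by Alb narrowed most of the genes. The SD of log2 CPM over the 8 tumors was 1.08 for Alb, 1.04 for Axin2, 1.04 for Oat and 0.85 for Glul. After division by Alb it was 0.43 for Axin2, 0.56 for Oat and 0.53 for Glul. In all, 8 of the 10 genes had a smaller SD after division, as did 9.33% of the tested genes, whereas the SD of Ctnnb1 went from 0.35 to 1.256 and that of Nkd1 from 0.97 to 1.17.

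**Figure D3:**
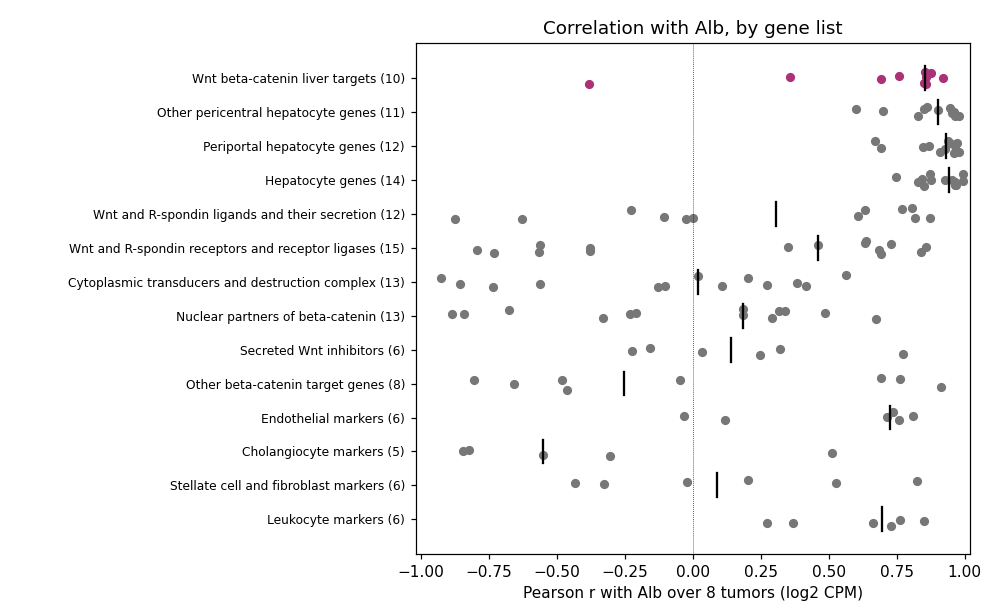
Pearson's r with Alb over the 8 tumors for every tested gene of each list, with the number of genes in parentheses and a black line at the median of the list. The medians are 0.85 for the 10 genes, 0.90 to 0.94 for the 3 lists of hepatocyte genes, and -0.26 to 0.46 for the lists of other pathway genes and targets.

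Genes of both ends of the liver lobule followed Alb alike. The median r with Alb was 0.90 over 11 other pericentral genes, 0.93 over 12 periportal genes and 0.94 over 14 general hepatocyte genes. Cyp2e1, a pericentral enzyme of drug and alcohol metabolism, had r = 0.96, and Ass1, the periportal urea cycle enzyme argininosuccinate synthase, also 0.96. The rest of the Wnt pathway was spread more widely, with medians of 0.30 over 12 tested ligands and secretion genes, 0.46 over 15 receptors, 0.02 over 13 cytoplasmic transducers, 0.18 over 13 nuclear partners, 0.14 over 6 secreted inhibitors and -0.26 over 8 targets outside the liver set. The most abundant receptor and ligand ran opposite to Alb, with r = -0.79 for Lgr6, a relative of Lgr5 at 36.7 to 152 TPM, and r = -0.88 for Wnt7b, at 8.46 to 39.9 TPM. In the pathway lists r ran both ways, from -0.88 to 0.87 (Wls) in ligands and secretion genes. It ran from -0.79 to 0.86 (Fzd1) in receptors and from -0.81 to 0.91 (Tnfrsf19) in the other targets. Myc, a target in proliferating cells, had r = -0.81, and the cholangiocyte and progenitor genes Sox9 and Spp1 had -0.83 and -0.85. The other cholangiocyte markers were less negative or positive, with -0.55 for Krt7, -0.31 for Krt19 and 0.51 for Epcam. Endothelial markers had a median r of 0.73, leukocyte markers 0.69, stellate cell and fibroblast markers 0.09 and cholangiocyte markers -0.55. These values describe 8 tumors that share 2 extreme libraries, and the lists were not tested against each other. The part of any cell type in the levels of the 10 genes was not tested.

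The genes whose pattern over the 8 tumors was most like that of 4 of the 10 genes were taken by Pearson's r of log2 CPM. For Axin2 these were Akr1c6, Amdhd1 and Gsta3 (r = 0.99 each), an aldo-keto reductase, an enzyme of histidine breakdown and a glutathione transferase. For Glul they were Ido2, the glutamate transporter gene Slc1a2 and the coagulation factor gene F11 (r = 0.98 each). For Lgr5 they were A230072C01Rik, Tcrg-C4 and Tshz3 (r = 0.96, 0.95 and 0.95), of which the first and second reached no more than 2.45 and 3.44 CPM. For Ctnnb1 they were Foxk2, Nedd4 and Tgfbr3 (r = 0.98, 0.97 and 0.97), which had r of -0.48, -0.32 and -0.44 with Alb.

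At 3 h after PFSUV-IMQ, edgeR's quasi-likelihood test called 0 of the 10 genes higher or lower (a log2 fold change beyond 1 at an adjusted p under 0.05), where 2.26% of the 15998 tested genes were called higher and 0.200% lower. At an unadjusted p under 0.05 there was 1 of the 10, Nkd1, against 1334 higher and 744 lower among all tested genes. Log2 fold changes were above 0 for 4 of the 10 genes and below 0 for 6, with a median of -0.22, and the median of all tested genes was -0.03. Alb itself had 10372 ± 8441 CPM in the Control and 9401 ± 8904 CPM in the IMQNP tumors (SD, n = 4 each), with a log2 fold change of -0.14 (SE 0.71, adjusted p = 0.964).

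**Figure D4:**
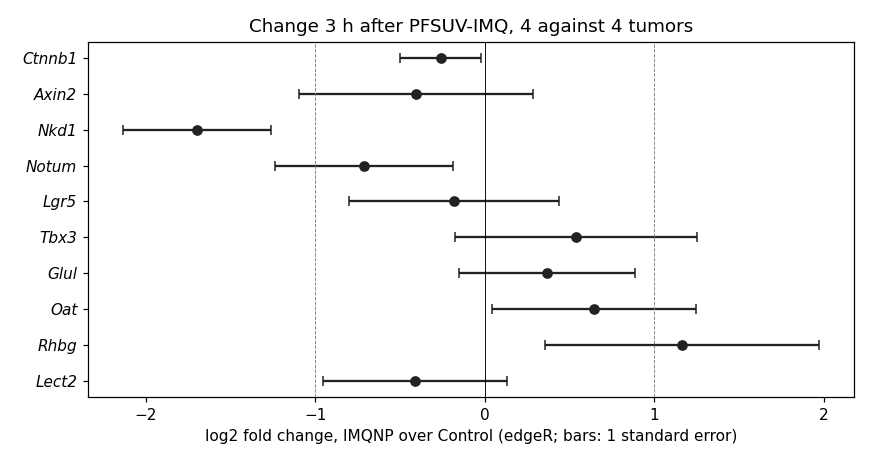
Log2 fold change of each gene in IMQNP over Control tumors from edgeR (n = 4 each), with bars of 1 SE and dashed lines at -1 and 1, the limits for a call. Nkd1 has the largest decrease at -1.70 and Rhbg the largest increase at 1.16, and neither passed the adjusted threshold.

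Nkd1 showed the largest difference of the 10 genes. It measured 3.34 ± 1.96 CPM in the Control and 1.03 ± 0.299 CPM in the IMQNP tumors (SD, n = 4 each). Its log2 fold change was -1.70 (SE 0.44), with an unadjusted p = 0.00333 and an adjusted p = 0.0900 in the quasi-likelihood fit of edgeR. It was the 1 gene of the 10 in which every IMQNP tumor lay below every Control tumor, which held for 3.28% of all tested genes. The call depended on the test. The Wald test of DESeq2 gave -1.69 (adjusted p = 0.00880) and edgeR's exact test -1.70 (adjusted p = 0.0160), both past the threshold, as did the quasi-likelihood test with log2 Alb as a covariate, at -1.55 (adjusted p = 0.0333). Over all 17 alternatives the log2 fold change stayed between -1.89 and -1.21 and the adjusted p between 0.00880 and 0.208. The smallest decrease, -1.21, was without Control 4, the tumor highest in Nkd1.

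The other feedback inhibitors had smaller differences. Notum measured 4.42 ± 3.19 and 2.72 ± 1.39 CPM, with a log2 fold change of -0.71 (SE 0.53, adjusted p = 0.669), and Axin2 measured 2.77 ± 2.49 and 2.12 ± 1.51 CPM, with a log2 fold change of -0.40 (SE 0.69, adjusted p = 0.885). Without Control 4 the value of Notum was -0.10 (adjusted p = 0.961) and that of Axin2 turned to 0.37. Ctnnb1 had 361 ± 84.4 and 302 ± 76.7 CPM, a log2 fold change of -0.26 (SE 0.24, adjusted p = 0.751), the smallest SE of the 10. For Lgr5 the log2 fold change was -0.18 (SE 0.62, adjusted p = 0.951) and for Lect2 -0.41 (SE 0.54, adjusted p = 0.839), and without Control 4 both turned positive, to 0.56 and 0.39. None of these differences exceeded the spread between tumors.

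The metabolic genes and Tbx3 lay on the other side of 0. Oat had 63.1 ± 48.3 CPM in the Control and 98.7 ± 70.3 CPM in the IMQNP tumors, a log2 fold change of 0.64 (SE 0.60, adjusted p = 0.753). Tbx3 had 4.31 ± 4.26 and 6.31 ± 4.64 CPM, a log2 fold change of 0.54 (SE 0.71, adjusted p = 0.839), and Glul 210.1 ± 167 and 271 ± 134 CPM, a log2 fold change of 0.37 (SE 0.52, adjusted p = 0.852). Rhbg had 0.344 ± 0.402 and 0.800 ± 0.699 CPM, a log2 fold change of 1.16 (SE 0.81, adjusted p = 0.643). All 4 values turned on 2 tumors. Without Control 4 the log2 fold changes were 1.27 for Oat, 1.46 for Tbx3, 1.07 for Glul and 2.39 for Rhbg, and without IMQNP 2 they were 0.02, -0.09, -0.05 and 0.39, with adjusted p of 0.234 or more in these 8 values. With both tumors left out they were 0.64 for Oat, 0.82 for Tbx3 and 0.64 for Glul, with adjusted p of 0.676, 0.660 and 0.440, and Rhbg fell under the filter on low counts. With log2 Alb as a covariate, Oat had 0.86 (SE 0.20, adjusted p = 0.0244) and Glul 0.67 (SE 0.17, adjusted p = 0.0409), under the limit on the fold change, and Tbx3 0.94 (SE 0.30, adjusted p = 0.100). With that limit the same fit called 638 of the 15998 tested genes higher and 139 lower. The share past the adjusted p alone in it was not counted.

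Set against Alb of the same tumor, Oat and Tbx3 separated the groups, although neither passed in the main limma fit of the ratios, adjusted over all genes. Oat per length was 0.489, 0.719, 0.575 and 0.743% of Alb in Control 1, 3, 4 and 5 and 0.923, 0.876, 1.49 and 1.40% in IMQNP 1 to 4. Tbx3 was 0.00944, 0.0146, 0.0165 and 0.0137% of Alb in the Control tumors and 0.0174, 0.0201, 0.0373 and 0.0310% in the IMQNP tumors. In both genes every IMQNP tumor lay above every Control tumor, a separation found in 2.04% of all tested genes. The log2 ratio to Alb differed by 0.87 for Oat and 0.90 for Tbx3 (two-sided exact permutation p = 0.0286 each, the smallest possible with 4 against 4 tumors, unadjusted).

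**Figure D5:**
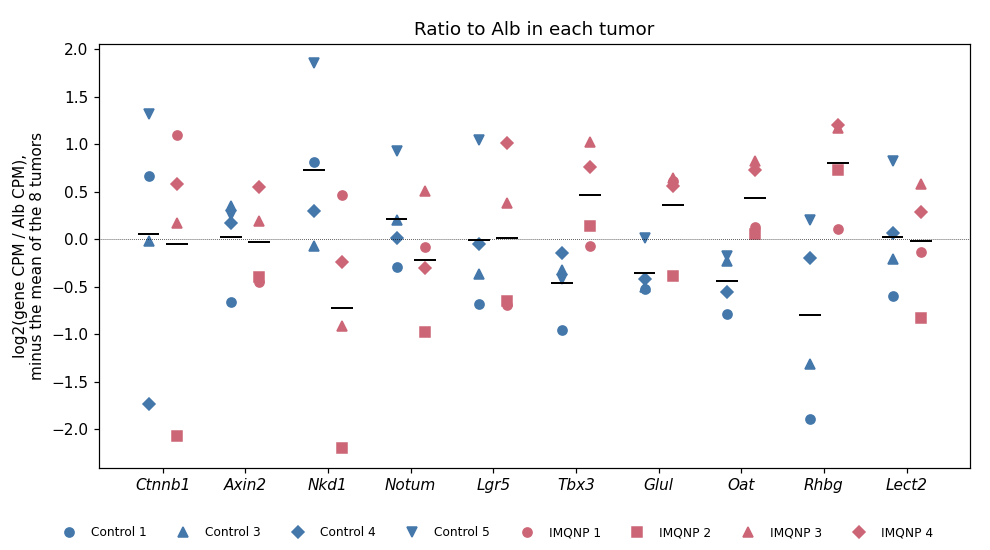
Log2 ratio of the CPM of each gene to that of Alb, minus its mean over the 8 tumors, with 1 symbol per tumor and black lines at the group means. For Tbx3 and Oat all 4 IMQNP tumors lie above the 4 Control tumors, and for Glul 3 of the 4 do.

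Glul was 1.33, 1.35, 1.43 and 1.92% of Alb in the Control tumors and 2.92, 1.46, 2.99 and 2.82% in the IMQNP tumors, a log2 difference of 0.72 (exact permutation p = 0.0571, n = 4 each). IMQNP 1, 3 and 4 were above every Control tumor, and IMQNP 2 was within their range. Rhbg differed by 1.23 (exact permutation p = 0.0857), a value that depends on the prior count since it had few counts, with 1.60 and a p of 0.0571 on the scale without one. Nkd1 differed by -1.35 (exact permutation p = 0.114) and Notum by -0.41 (exact permutation p = 0.371). The differences for Ctnnb1, Axin2, Lgr5 and Lect2 were -0.11, -0.05, 0.05 and -0.05 (exact permutation p from 0.857 to 0.943).

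None of these ratios passed when limma was fitted over all genes, in which 0 of the 10 genes had an adjusted p under 0.05 and each had an adjusted p of 1, with 0 at an unadjusted p under 0.05. In that fit 0.231% of the 15997 tested genes were called higher (37 genes, with 377 at an unadjusted p under 0.05) and 0% lower (34 at an unadjusted p under 0.05). The same Alb values were subtracted from every gene, so the variance that limma pools over genes holds the spread of Alb. For Oat the SE was 0.80 in this fit and 0.20 in edgeR with log2 Alb as a covariate. Failing to pass here therefore says little about genes that follow Alb. The choice of Alb as the reference also mattered. Against the mean of the 15 hepatocyte genes, which itself was 0.35 higher on the log2 scale in the IMQNP tumors, the differences were 0.36 for Oat, 0.38 for Tbx3 and 0.21 for Glul (exact permutation p = 0.171, 0.200 and 0.543), and the groups overlapped in all 3.

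Other genes of the pathway did not pass the call in the same fit. No tested gene was called by edgeR's quasi-likelihood test among 12 ligands and secretion genes, 15 receptors, 13 cytoplasmic transducers, 13 nuclear partners, 6 secreted inhibitors, 8 other targets, 11 pericentral genes and 12 periportal genes. At an unadjusted p under 0.05 there were 4 higher and 8 lower among the 90 tested genes of these lists (4.44% and 8.89%), against 8.34% and 4.65% of all tested genes, and 2 and 5 of them were nuclear partners. Ctnnbip1, whose product keeps beta-catenin from TCF factors, had 12.5 ± 3.50 CPM in the Control and 7.12 ± 0.695 CPM in the IMQNP tumors, a log2 fold change of -0.82 (SE 0.23, adjusted p = 0.115). Tle3, a co-repressor of TCF factors, had 64.7 ± 6.72 and 89.9 ± 4.66 CPM, a log2 fold change of 0.48 (SE 0.14, adjusted p = 0.129). Of the other genes with the smallest p in their lists, Amer1, a scaffold of the complex that breaks down beta-catenin, had a log2 fold change of 0.52 (adjusted p = 0.343), the receptor gene Fzd4 -0.66 (adjusted p = 0.318) and Myc 0.68 (adjusted p = 0.403). Nkd2, the relative of Nkd1, had -0.84 (SE 0.40, adjusted p = 0.435), and the ligand genes Wnt4 and Wnt2b had -0.84 and 0.86 (adjusted p = 0.481 and 0.514).

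Among the zonation genes, Cyp7a1, the rate-limiting enzyme of bile acid synthesis and a pericentral gene, had the largest difference, with 21.4 ± 23.9 CPM in the Control and 1.97 ± 0.710 CPM in the IMQNP tumors (SD, n = 4 each) and a log2 fold change of -3.44 (SE 0.85, adjusted p = 0.0759). The DESeq2 Wald test called it (-3.41, adjusted p = 8.3e-05), as did edgeR's exact test (adjusted p = 0.00185). The pericentral nuclear receptor gene Nr1i3 had -2.71 (SE 0.88, adjusted p = 0.191), with 3.62 ± 4.36 and 0.561 ± 0.457 CPM. Pck1 and Sds, periportal genes of gluconeogenesis and serine breakdown, had 2.02 (SE 0.87, adjusted p = 0.364) and 1.57 (SE 0.74, adjusted p = 0.422). With log2 Alb as a covariate 4 genes of these pathway and zonation lists were called higher, Sfrp1 (1.10), Slc1a2 (1.61), Pck1 (2.54) and Sds (2.01), and 2 lower, Cyp7a1 (-2.49) and Nr1i3 (-2.17). Beside these 4 and 2 of 90 list genes, that fit called 638 higher and 139 lower of all 15998 tested genes.

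Of the markers of cell types a tumor sample can hold, none was called by edgeR's quasi-likelihood test, with 0 higher and 2 lower of 38 at an unadjusted p under 0.05. The share of 5.26% lower was near the 4.65% of all tested genes. Lrat, a gene of stellate cells, had a log2 fold change of -1.80 (SE 0.50, adjusted p = 0.117), and Clec4f, a gene of Kupffer cells, -0.96 (SE 0.27, adjusted p = 0.122). Their lists went both ways, with 3 of 6 stellate cell and fibroblast markers and 2 of 6 leukocyte markers higher. Col1a1 had 0.87 (adjusted p = 0.39) and Cd79a 0.81 (adjusted p = 0.71), and the medians of the lists were 0.06 and -0.18. The DESeq2 Wald test called Lrat (-1.79, adjusted p = 0.0129). Summed over 6 endothelial markers, the per-length level was 65.0 to 96.7 TPM in the Control and 49.1 to 69.4 TPM in the IMQNP tumors, and over 6 leukocyte markers it was 1961 to 2939 and 1124 to 2489 TPM. Their part in the difference of Nkd1 was not tested.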

How the data were processed

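The RNA of 8 HCA-1 tumors, 4 Control and 4 IMQNP, was sequenced in bulk. All tests started from the whole-number counts per gene that the authors deposited. The other deposited table gives a DESeq2 signal, the counts of a tumor over its size factor (largest relative departure 9.8e-10), and gave the gene symbols and an alternative for the correlations. The methods name TopHat and HTSeq, whereas the submitters' processing notes name Trimmomatic 0.38, HISAT2 2.1.0 and featureCounts 2.0.0, so which tools made the counts, their genome build and their use of strand are uncertain. All 55536 identifiers were found in the GENCODE M21 annotation of GRCm38, from which coordinates and exon lengths for TPM were taken.

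Groups were compared in R 4.3.3 by the quasi-likelihood test of edgeR 4.0.16 with TMM normalization, its default low-count filter and Benjamini-Hochberg adjustment over 15998 genes. Ratios to Alb were fitted with limma 3.58.1 on log2 CPM (prior count 2), and members were also compared by exact permutation of tumors. Correlations with Alb were tested by exact permutation for every tested gene in numpy 2.4.6. DESeq2 1.42.0 served as an alternative. Other alternatives were its size factors, upper-quartile normalization, no filter, at least 10 counts in every tumor, edgeR's exact test, the adjusted p alone, log2 Alb as a covariate, a replicate block, a prior count of 0.5, the hepatocyte mean in place of Alb, group means subtracted, the longest transcript in place of all exons, and each tumor left out in turn. The tests were tried on simulated data. The p-values measure the spread between these tumors, and the floor of 3 counts covers counting error only. No sequencing batch or date is given.

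The members, gene lists and tests were chosen with earlier results of these data known. Named genes were the members and Alb, every called gene of each list or otherwise its 2 genes with the smallest p, its gene with the highest per-length level, and the 3 genes most like Axin2, Glul, Lgr5 and Ctnnb1 in pattern. Promoter windows of Lgr5, Notum, Tbx3 and Rhbg were not analysed here.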

Additional observations from a re-analysis of the deposited data

Results flagged for a closer look

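In 15 of the 114 groups of 4 tumors examined, 1 tumor stood apart from the other 3 by Dixon's criterion (gap over range above 0.829), which chance gives in about 1 of 20 groups. The groups are not independent, since the same tumors recur. Control 4 stood above the other Control tumors in Lgr5 (2.71 CPM, others at most 0.878), Rhbg (0.945 CPM, others at most 0.176) and Lect2 (107 CPM, others at most 35.5). It also did so in the receptor ligase gene Rnf43 (16.4 CPM), the pericentral nuclear receptor gene Nr1i3 (10.1 CPM) and the endothelial gene Stab2 (38.1 CPM), and it stood below the others in Spp1 (1865 CPM, others 6846 to 7817). IMQNP 2 stood above the other IMQNP tumors in Alb (22736 CPM, others at most 5479), Glul (469.8 CPM, others at most 219), the secreted Wnt inhibitor gene Sfrp1 (97.1 CPM), Ass1 (695 CPM), the fibrinogen gene Fgg (3907 CPM) and the B cell gene Cd79a (8.45 CPM). In the log2 ratio of Glul to Alb it lay below the other 3, at -5.60 against -4.64 to -4.56. IMQNP 1 stood above the other IMQNP tumors in the collagen gene Col1a1 (3913 CPM, others 1288 to 1599).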

How the results depend on the processing

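Of the 167 values of the members' fold changes under alternatives, 155 kept their direction and 3 were called, all of Nkd1. The count of members called lower was 1 under DESeq2's Wald test, edgeR's exact test and Alb as a covariate. Pathway and zonation genes called lower numbered 1 without a filter, 2 under the Wald test, 1 under the exact test and 2 with Alb as a covariate, which also called 4 higher. Cell type markers called lower numbered 1 under the Wald test, the exact test and the covariate, and 1 was called higher with the covariate (Tat). Calls over all genes numbered 197 to 638 higher and 8 to 267 lower. They were 572 and 114 under the Wald test, 541 and 92 under the exact test and 638 and 139 with the covariate. The covariate turned Lgr5 to 0.035, and the hepatocyte mean turned its ratio to -0.46.

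The groups share the replicate numbers 1, 3 and 4, although each tumor came from its own mouse, and the deviations of same-numbered tumors from their group means had correlations of 0.294, -0.268 and -0.316. Control 5 and IMQNP 2 have no same-numbered tumor in the other group. In a fit with a replicate block they therefore add nothing to the group difference, which rests on replicates 1, 3 and 4. With this block, Tbx3, Glul and Oat turned to -0.16, -0.10 and -0.11, and the ratios of Ctnnb1, Axin2, Notum and Lect2 to 0.98, 0.19, 0.10 and 0.49. The block called 6 pathway and zonation genes and 1 cell type marker lower, and gave 416 and 267 calls over all genes. In the limma fit of the ratios it put 2 members, Tbx3 (1.05) and Rhbg (1.67), past the adjusted threshold. The share of all tested genes past that threshold was not counted. Small p were common over all genes in that fit, where a limma p of 0.316 for Nkd1 had an adjusted p of 0.349. The cause was not tested.

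Without both tumors highest in Alb, Lgr5 and Lect2 turned to 0.19 and 0.019, the ratios of Axin2 and Lect2 to 0.12 and 0.24, and r of Ctnnb1 and Rhbg to 0.43 and -0.11, and 0 members passed in r. With group means subtracted, 4 did, and the share over all tested genes was not counted in either setting. With each tumor left out, fold changes ranged from -0.9999 to 0.37 for Axin2, -0.54 to 0.56 for Lgr5, -0.77 to 0.39 for Lect2, -0.088 to 1.46 for Tbx3, 0.39 to 2.39 for Rhbg, -1.10 to -0.10 for Notum and -0.054 to 1.07 for Glul. Ratios ranged from -0.71 to 0.56 for Ctnnb1, -0.27 to 0.093 for Axin2, -0.26 to 0.41 for Lgr5 and -0.25 to 0.22 for Lect2, and r of Nkd1 from -0.14 to 0.64. Members past the threshold in r numbered 0 to 1, and list genes called lower 0 to 1 in both sets of lists.

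Rhbg and Lgr5 rest on few counts, the smallest 2 and 6. The SE of the log2 fold change was 0.62 for Lgr5 and 0.71 for Alb, which had at least 54102 counts per tumor, and how far depth limits the scarce genes was not tested. With 4 tumors a group, differences of about their SE could not be told from 0.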
